A study of Mus musculus with 16 samples.

Results

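The genes described here are 36 products of the hepatocyte, the main cell of the liver: plasma carriers, apolipoproteins, fibrinogen, clotting factors, complement proteins and the transcription factors HNF4 alpha and C/EBP alpha. They were chosen by name as a list of secreted liver proteins and of their regulators, with earlier results of these data known. All 36 were found among the 33269 gene names on the arrays. Each was represented by its brightest probe. 9 of the 36 had several probes.

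Hepatocytes synthesise most of the proteins that circulate in blood plasma. Albumin and other carriers hold hormones, vitamins, haem and fatty acids in solution, and apolipoproteins form the protein part of lipoprotein particles. The clotting factors are proteases and cofactors that act in a cascade ending with thrombin, which cuts fibrinogen to fibrin, and several of them need vitamin K for a modification that lets them bind calcium. Complement is a second plasma cascade, centred on C3, that marks targets for phagocytes and ends in a membrane pore built from C8 and C9 among others. Transcription of many of these genes in the liver depends on HNF4, C/EBP and FOXA factors, among others, and the loss of plasma protein synthesis is a clinical sign of failing cirrhotic liver.

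The study modelled cirrhosis in female C57Bl/6 mice with 40 weeks of atherogenic high fat diet, which all samples share. Treatment was with phosphate-buffered saline (PBS) or with ADSC, adipose tissue-derived stem cells, which are mesenchymal cells and were grown here in culture from the inguinal fat of GFP-transgenic mice. They were injected 2 times, 100000 cells each time, beneath the spleen's capsule, and samples date from 2 weeks after the second dose. RNA of whole liver and of inflammatory cells isolated from the liver was hybridised to 16 one-colour arrays. Each combination of sample type and treatment had 4 arrays, numbered 11 to 14 for PBS and 7 to 10 for ADSC in liver and in cells alike. No group on another diet was analysed here. Nothing in the labels ties a number to 1 animal or each array to its own animal, so p-values measure only the spread between these samples, which may be technical. The extraction text in the labels speaks of inflammatory cells from a tumor and of blood, and does not name whole liver.

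Levels are given as log2 processed signal minus the 75th percentile of the same array, so a level of 0 lies at that percentile and a difference of 1 is a doubling of signal. A level compares 1 gene between arrays, not different genes. A probe was above background where the scanner software marked it so; between 51.6% and 66.3% of spots were. The 75th percentile of the signal itself ran from 123 in inflammatory cells ADSC 8, the dimmest array, to 553 in liver PBS 12. Correlations between arrays of 1 group lay between 0.921 and 0.984. The fraction's leukocyte markers followed its label: all 5 were higher in inflammatory cells than in liver, by a median of 2.61. The mean level of 9 pancreas acinar markers was 6.09, 8.04 and 8.27 in inflammatory cells PBS 11, PBS 13 and ADSC 10, against -1.44 to 2.25 in the other inflammatory cell arrays and -5.19 to -4.02 in liver. These 3 arrays therefore stood apart, and the treatment comparison in inflammatory cells, in which 0 of all genes passed without them, is given with and without them for the genes it turns on. Leaving them out sets PBS 12 and PBS 14 against ADSC 7, ADSC 8 and ADSC 9, fewer arrays than the full comparison.

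Promoter windows were read for the members, since genes that are high in 1 cell type often share binding motifs near their start. RefSeq's GRCm38.p6 table held a window of 300 bases, from 250 before to 50 after the transcript start, for 28 of the 36 genes (31 windows in all). Ttr, Apoc3, C4b, Kng1, Cfi, Plg, Cfb and Proc are named only. Each window was searched on both strands for 3 strings: the HNF4 string CAAAGTCCA, the C/EBP string TTGCNNAA and the FOXA string TGTTTNC. The windows shown are those of Alb and Fgb, which hold both the C/EBP and the FOXA string, of Apoa1, which holds the FOXA string at 2 places, and of F7 and F10, the clotting factors with the smallest differences between cell fraction and liver. Alb lies at chr5:90460620-90460919 on the plus strand, Apoa1 at chr9:46228380-46228679 on the plus strand, Fgb at chr3:83049814-83050113 on the minus strand, F7 at chr8:13025784-13026083 and F10 at chr8:13037058-13037357, both on the plus strand. Each is written 5′ to 3′ on the gene's strand, and capitals mark the matches.
Alb: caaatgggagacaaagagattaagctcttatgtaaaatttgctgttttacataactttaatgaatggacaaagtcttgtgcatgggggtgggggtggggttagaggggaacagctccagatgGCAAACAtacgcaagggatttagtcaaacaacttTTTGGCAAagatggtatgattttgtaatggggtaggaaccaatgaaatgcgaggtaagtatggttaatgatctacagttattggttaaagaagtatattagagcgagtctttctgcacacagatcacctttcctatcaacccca
Apoa1: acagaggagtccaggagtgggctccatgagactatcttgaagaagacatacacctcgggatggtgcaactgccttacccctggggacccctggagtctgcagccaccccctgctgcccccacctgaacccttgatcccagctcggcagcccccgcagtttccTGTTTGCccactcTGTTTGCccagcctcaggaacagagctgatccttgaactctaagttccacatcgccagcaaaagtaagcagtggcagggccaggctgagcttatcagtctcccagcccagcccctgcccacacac
Fgb: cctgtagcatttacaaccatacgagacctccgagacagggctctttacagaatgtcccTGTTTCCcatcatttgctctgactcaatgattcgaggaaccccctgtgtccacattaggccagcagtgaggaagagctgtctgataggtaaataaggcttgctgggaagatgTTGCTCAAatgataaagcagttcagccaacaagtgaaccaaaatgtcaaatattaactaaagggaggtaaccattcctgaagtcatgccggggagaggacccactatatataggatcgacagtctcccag
F7: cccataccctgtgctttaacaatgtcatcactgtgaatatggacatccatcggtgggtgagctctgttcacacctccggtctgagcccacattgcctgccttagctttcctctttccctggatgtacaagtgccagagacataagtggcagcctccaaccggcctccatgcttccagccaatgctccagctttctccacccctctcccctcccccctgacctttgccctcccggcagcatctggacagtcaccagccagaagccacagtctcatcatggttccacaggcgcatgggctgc
F10: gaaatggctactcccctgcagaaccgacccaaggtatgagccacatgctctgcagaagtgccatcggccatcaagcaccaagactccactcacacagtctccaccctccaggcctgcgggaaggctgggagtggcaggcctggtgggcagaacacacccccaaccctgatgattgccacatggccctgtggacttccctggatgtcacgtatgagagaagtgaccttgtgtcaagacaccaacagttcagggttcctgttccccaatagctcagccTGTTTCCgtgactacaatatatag

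In the Alb window the C/EBP string matched from -94 to -87 relative to the start and the FOXA string from -128 to -122. In the Fgb window the C/EBP string matched from -80 to -73 and the FOXA string from -192 to -186. The F7 window held 0 of the strings and the F10 window a single FOXA match, from 27 to 33 after the start. The C/EBP string was found in 14 of the 31 member windows (45.2%) and in 10.8% of all 32851 windows of the same length, and the FOXA string in 14 (45.2%) against 20.5%. The HNF4 string was found in 0 member windows (0.475% of all windows). At least 1 of the strings was present in 22 of 31 member windows (71%) and in 28.8% of all windows. A match says only that these letters stand in the window.

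The first comparison was of inflammatory cells with whole liver, which asks how much of the hepatocyte's secretory programme is seen in the isolated fraction. All 36 genes were lower in inflammatory cells, with a median difference of -5.38 against a median of 0.35 over all 22145 genes tested. By limma with Benjamini-Hochberg adjustment all 36 passed as lower, where 35.4% of all genes passed as lower and 48.9% as higher. The 8 inflammatory cell arrays lay below the 8 liver arrays for each of the 36 genes, which was the case for 23.8% of all genes. The probes used for C8b, C9 and Hnf4a were not above background on any cell array. They entered the test through the liver arrays alone, so their place in these counts supports nothing. Of the 28 genes whose probe was above background on all 8 cell arrays, 3 fell by under 10-fold, 8 by 10- to 32-fold, 12 by 32- to 64-fold and 5 by over 64-fold. The other 8 (Ttr, F5, F13b, C8a, C8b, C9, Itih1 and Hnf4a) were below background on some or all cell arrays, and their fitted differences are less certain. On the 5 slides taken singly the median lay between -6.25 and -4.83. That all 36 genes were lower on each slide follows from the sample types not overlapping. In such bulk samples fewer hepatocytes and less RNA per hepatocyte cannot be told apart.

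**Figure D1:**
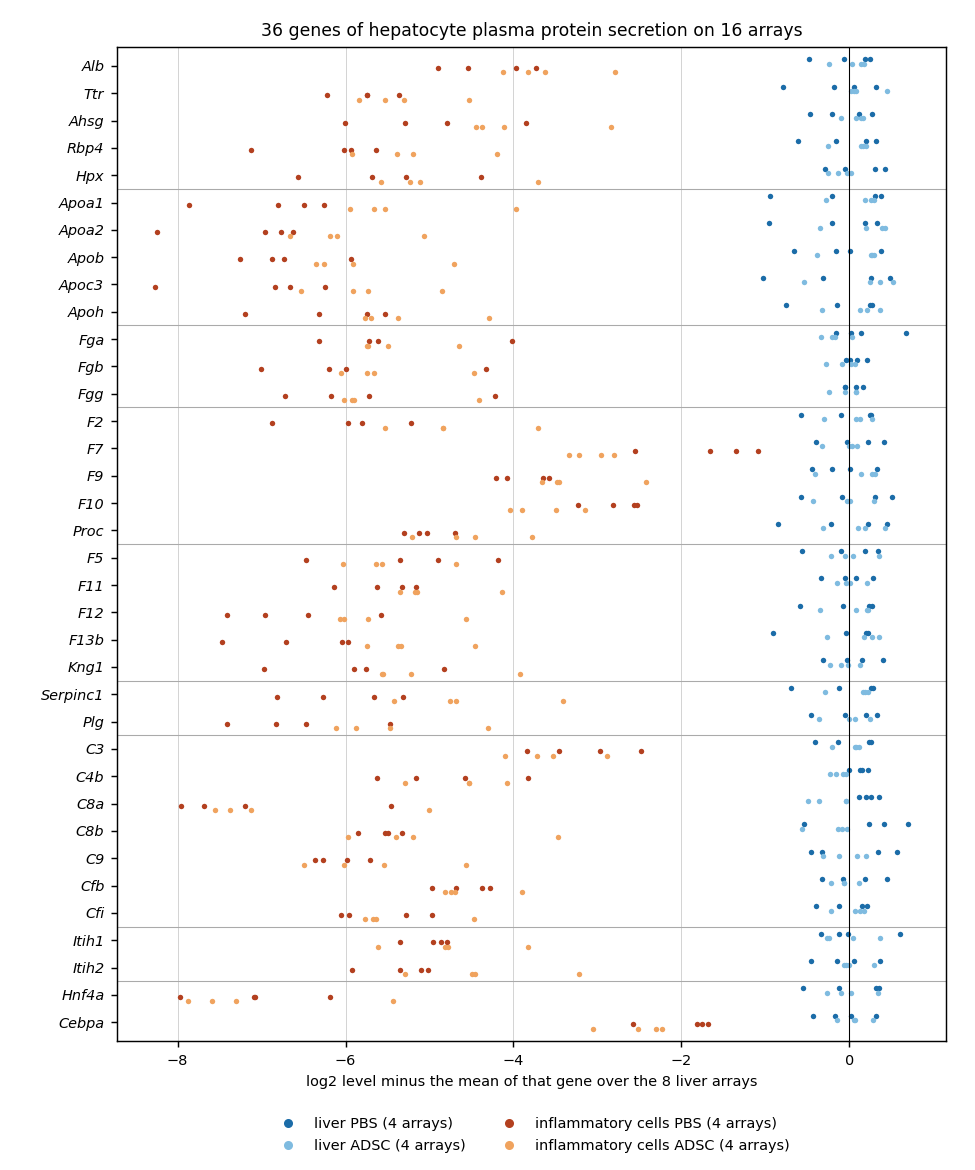
Levels of the 36 genes on the 16 arrays, each as the log2 level minus that gene's mean over the 8 liver arrays; 1 point is 1 array, colours give the 4 groups and grey lines separate the roles. Liver arrays lie around 0, inflammatory cell arrays lie to the left of them for all 36 genes, and F7, F10 and Cebpa lie closest to liver, with mean differences of -2.37, -3.22 and -2.24.

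Among the 5 carriers, albumin (Alb, probe A_51_P160713), the main protein of plasma, lay at 9.67, 8.99, 9.72 and 9.41 in liver PBS 11 to 14 and at 9.23, 9.50, 9.65 and 9.62 in liver ADSC 7 to 10. In inflammatory cells it lay at 4.94, 5.74, 5.50 and 4.58 with PBS and at 5.35, 6.69, 5.65 and 5.86 with ADSC. The lowest of the livers was PBS 12 and the highest of the cell arrays ADSC 8, with a wide gap between the sample types. The difference was -3.94 ± 0.21 (SE, 8 arrays against 8), a 15.3-fold lower signal (limma, adjusted p = 6.31e-11). The others were the thyroxine and retinol carrier transthyretin (Ttr), the retinol-binding protein Rbp4, the haem carrier hemopexin (Hpx) and fetuin A (Ahsg), and they fell by 22.1- to 51.2-fold.

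The 5 apolipoproteins had the largest median fall of the roles, -6.25 on the log2 scale. Apoa1 (A_51_P408082), the main protein of high-density lipoprotein, lay at 7.25, 5.93, 7.18 and 6.66 in liver PBS 11 to 14 and at 6.59, 7.06, 7.13 and 7.17 in liver ADSC 7 to 10. In inflammatory cells it lay at 0.37, 0.61, 0.07 and -0.99 with PBS and at 0.92, 2.90, 1.34 and 1.21 with ADSC. Liver PBS 12 was the lowest liver, and all 4 ADSC cell arrays were above all 4 PBS cell arrays. Its difference between the sample types was -6.07 ± 0.30, or 67-fold (adjusted p = 3.24e-11).

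Apoa2 (A_51_P128973), the other major high-density lipoprotein component, lay at 8.10, 6.81, 7.96 and 7.56 in liver PBS and 7.42, 7.97, 8.19 and 8.16 in liver ADSC. In the cell fraction its values were 0.82, 1.15, 1.01 and -0.48 with PBS and 1.11, 2.70, 1.67 and 1.59 with ADSC, where the groups overlapped only through ADSC 7 and PBS 12. It was 95.4-fold lower in the cells (-6.58 ± 0.28, adjusted p = 6.99e-12). Apoc3 (A_51_P310629), an inhibitor of lipoprotein lipase, lay at 6.59, 5.31, 6.82 and 6.01 in liver PBS and 5.79, 6.58, 6.70 and 6.85 in liver ADSC. In the cells it lay at -0.33, 0.09, -0.51 and -1.94 with PBS and at -0.20, 1.48, 0.60 and 0.42 with ADSC, again lowest in PBS 14 and highest in ADSC 8. Its signal was 83.2-fold lower in the cells (-6.38 ± 0.32, adjusted p = 3.24e-11). Apob, the structural protein of low-density lipoprotein, fell by 76.3-fold and Apoh, which binds phospholipid, by 53.5-fold.

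The 3 fibrinogen chains fell by 42.5- to 51.3-fold. Fgb (A_51_P428483), the beta chain, was steady in the livers, at 9.32, 9.12, 9.20 and 9.07 with PBS and at 8.83, 9.13, 9.18 and 9.02 with ADSC. The cell arrays gave 2.91, 4.79, 3.11 and 2.10 with PBS and 3.37, 4.64, 3.45 and 3.05 with ADSC, so that PBS 12 and ADSC 8 stood above the other 6. The difference between sample types was -5.68 ± 0.31 (adjusted p = 7.45e-11). Fga (A_51_P193813), the alpha chain, lay at 4.66, 5.19, 4.36 and 4.54 in liver PBS and 4.18, 4.35, 4.54 and 4.30 in liver ADSC, and here liver PBS 12 was the highest liver and not the lowest. Its cell values were -1.20, 0.49, -1.09 and -1.80 with PBS and -1.22, -0.13, -0.98 and -1.23 with ADSC, for a difference of -5.41 ± 0.27 (adjusted p = 3.58e-11). The gamma chain Fgg followed Fgb, at -5.64 ± 0.31.

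The 5 vitamin K-dependent factors had differences between -5.35 and -2.37. Prothrombin (F2), the precursor of thrombin, was 40.8-fold lower in the cells and protein C (Proc), an anticoagulant protease, 27.6-fold. Factor VII (F7, A_51_P484054), which starts coagulation with tissue factor, lay at 2.52, 1.91, 2.71 and 2.27 in liver PBS and 1.97, 2.33, 2.29 and 2.39 in liver ADSC. In the cells it lay at -0.25, 0.64, 1.21 and 0.96 with PBS and at -0.92, -0.51, -0.66 and -1.04 with ADSC. The cell groups did not overlap, and the PBS cell arrays were the closer ones to liver. Across both treatments F7 was only 5.17-fold lower in the cells (-2.37 ± 0.19, adjusted p = 9.14e-09).

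Factor X (F10, A_51_P174961), which as its active form cuts prothrombin, lay at 6.97, 5.88, 6.76 and 6.36 in liver PBS and at 6.02, 6.46, 6.74 and 6.42 in liver ADSC. In the cells it lay at 3.22, 3.88, 3.92 and 3.64 with PBS and at 2.96, 3.31, 2.55 and 2.40 with ADSC, where ADSC 8 was above PBS 11 and the other ADSC arrays lay below all PBS arrays. It was 9.30-fold lower in the cells (-3.22 ± 0.19, adjusted p = 1.90e-10). Factor IX (F9), a protease that activates factor X, was 11.8-fold lower, and its second probe gave -4.41 where the probe used gave -3.57.

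The other clotting proteins were the cofactor F5, the contact-pathway proteases F11 and F12, kininogen (Kng1) and F13b, and their differences ran from -6.10 to -5.26. F13b (A_51_P113205), the carrier subunit of the fibrin-crosslinking factor XIII, lay at 3.05, 1.94, 3.07 and 2.81 in liver PBS and 2.59, 3.03, 3.13 and 3.20 in liver ADSC. Its cell values were -3.86, -3.12, -3.20 and -4.62 with PBS, none of them above background, and -2.89, -1.60, -2.48 and -2.53 with ADSC, all above background. The difference between the sample types was -5.89 ± 0.25 (adjusted p = 6.87e-12). Antithrombin (Serpinc1), which inhibits thrombin and factor Xa, was 39.2-fold lower in the cells, and plasminogen (Plg), the precursor of the fibrin-degrading protease plasmin, 63.7-fold.

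In the complement group C3 (A_51_P110301), the hub of the cascade, lay at 9.85, 9.21, 9.87 and 9.48 in liver PBS and 9.41, 9.70, 9.73 and 9.68 in liver ADSC. Its cell values were 6.64, 7.14, 5.78 and 6.16 with PBS and 5.52, 6.73, 5.90 and 6.09 with ADSC, with full overlap of the treatments. It was 10.4-fold lower in the cells (-3.37 ± 0.21, adjusted p = 3.00e-10), and a second C3 probe gave -5.05. C4b (A_51_P428708), the cleaved component of the classical and lectin pathways, lay at 5.52, 5.49, 5.59 and 5.37 in liver PBS and 5.21, 5.29, 5.14 and 5.32 in liver ADSC. Its level in the cells was 0.79, 1.54, -0.26 and 0.21 with PBS and at 0.08, 1.29, 0.83 and 0.84 with ADSC, a difference of -4.70 ± 0.22 from liver (adjusted p = 1.88e-11). The mouse genome holds a near-identical copy of C4b, so this probe may also read the copy.

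The pore-forming components were near or below background in the cells. C8a (A_51_P204247), the alpha chain of C8, lay at 2.88, 3.04, 2.95 and 2.81 in liver PBS and at 2.20, 2.66, 2.65 and 2.33 in liver ADSC. Its cell values were -5.00, -2.76, -4.51 and -5.27 with PBS and -4.69, -2.32, -4.43 and -4.86 with ADSC, and the probe was above background on 1 array of each cell group. The fitted difference was -6.92 ± 0.37 (adjusted p = 7.53e-11), its size uncertain because the probe was not above background on the other 6 cell arrays. C8b and C9 were not well above background on any of the 8 cell arrays, so only a bound holds. The C8b signal was at least 9.86-fold lower than in liver, and for C9 the bound was 17.3-fold. Such a bound sets the liver mean against the lowest signal marked as above background on each cell array, or the probe's own signal where higher. Factor B (Cfb), of the alternative pathway, fell by 23.5-fold and the inhibitory protease factor I (Cfi) by 44.6-fold, while the inter-alpha-trypsin inhibitor heavy chains Itih1 and Itih2, which bind hyaluronan in the matrix, fell by 29.4-fold and 29-fold.

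The 2 transcription factors differed in how much signal was left. Hnf4a (A_52_P683991) lay at 2.88, 2.01, 2.92 and 2.44 in liver PBS and at 2.30, 2.46, 2.90 and 2.59 in liver ADSC. Its cell values were -3.63, -4.53, -5.41 and -4.51 with PBS and -4.75, -2.88, -5.31 and -5.03 with ADSC. They were not well above background on any array, which bounds the fall at 56.5-fold or more. Since this probe entered the test through the liver arrays alone, no test of it is given. The other Hnf4a probes disagreed: one gave -3.03 and the other, above background on all 16 arrays, 0.47. Cebpa (A_52_P168567), which also drives the development of granulocytes and monocytes, lay at 2.78, 2.34, 3.08 and 2.59 in liver PBS and 2.62, 2.82, 2.84 and 3.04 in liver ADSC. In the cells it remained above background on all arrays, at 1.01, 0.95, 0.19 and 1.08 with PBS and -0.29, 0.25, 0.46 and 0.53 with ADSC. Its difference, -2.24 ± 0.17, was the smallest of the 36 with the probes used (4.73-fold, adjusted p = 3.46e-09). With Hnf4a, C8b and C9 set at their bounds, the median over the 36 genes was -5.35.

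The signal left in the fraction can be written as a share of each gene's mean over the 8 livers. The median share of the 36 genes was 1.90%, 3.14%, 1.95% and 1.28% in inflammatory cells PBS 11 to 14 and 2.11%, 5.79%, 2.56% and 2.25% in ADSC 7 to 10. On the same arrays the median share of 16 hepatocyte enzymes and receptors that are not secreted was 2.00%, 1.75%, 2.46% and 1.46% with PBS and 1.55%, 3.56%, 2.12% and 2.18% with ADSC. ADSC 8 was the highest on both measures. The 4 members with the smallest difference between sample types lay above the member median on each of the 8 arrays: F7 kept 9.90% to 46.9% of its liver signal, Cebpa 12.0% to 31.0%, F10 6.05% to 17.3% and C3 5.83% to 17.9%. F9, next in that order, kept 5.39% to 18.6%. The median of the other 32 genes ran from 1.00% to 5.29% over the 8 arrays. Macrophage and Kupffer cell markers, of which 7 of 8 had a probe, were above background on all 8 cell arrays, with mean levels of 2.85 to 3.61 in PBS and 1.22 to 2.55 in ADSC arrays against 0.82 to 2.98 in the livers, and neutrophil markers lay at 2.07 to 7.31 against -1.59 to 4.66. Their part in the signal of F7, F10, C3 and Cebpa was not tested.

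**Figure D2:**
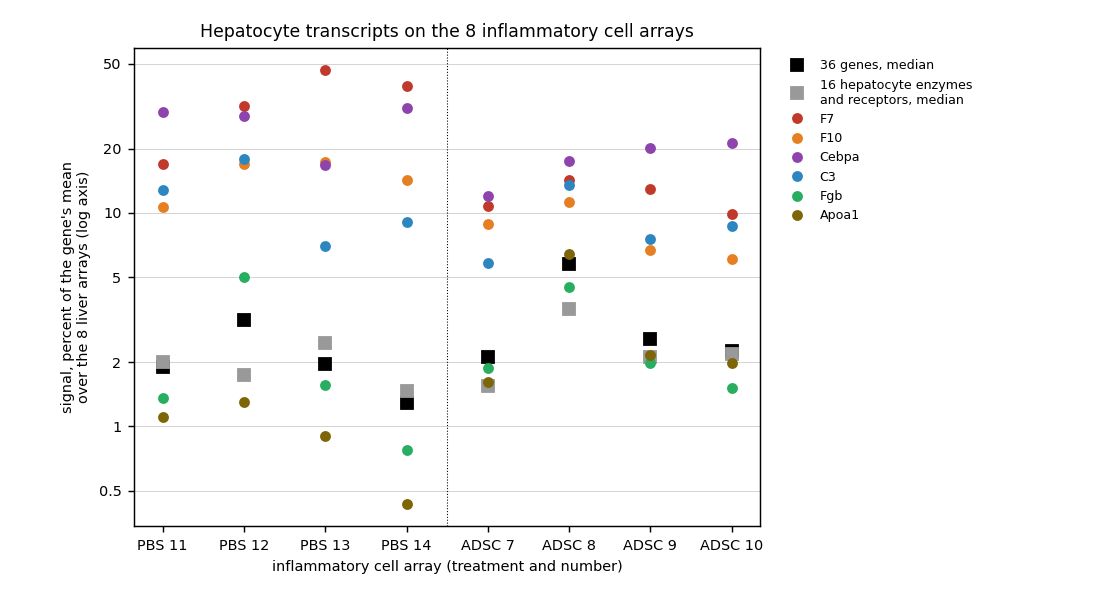
Signal on each inflammatory cell array as a percent of the gene's mean over the 8 liver arrays, on a log axis; squares are medians over the 36 genes and over 16 hepatocyte enzymes and receptors, circles are single genes. The 36-gene median lies between 1.28% and 5.79%, F7 lies between 9.90% and 46.9%, and F7 is higher on the PBS 11 to 14 arrays than on each ADSC array.

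Members also differed in how they moved between arrays. The correlation of each gene with the mean of the other 35 over the 8 cell arrays had a median of 0.891, and the lowest values were those of F7 (-0.38), Cebpa (-0.25), F10 (-0.10), F5 (0.47) and C3 (0.50). With the mean of each treatment group taken out, these became 0.06 for F7, 0.06 for Cebpa, 0.53 for F10, 0.63 for F5 and 0.81 for C3. Over the 8 livers the median was 0.916, with the lowest values for Fga (-0.47), C8a (0.04) and C4b (0.11). These are descriptions over 8 arrays, which share scaling and signal range, and the members of 1 array are not independent.

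Related genes outside the 36 were taken from lists drawn up with earlier results of these data known. Of 22 other complement genes tested, 14 were lower and 5 higher in inflammatory cells (median -4.21). The largest falls were those of the lectin Mbl2 (-6.72) and the C8 gamma chain C8g (-6.45), while C1qc (-0.18) and C1qa (-0.25), chains of the antibody-binding C1q, did not pass. The 5 that rose were Cd55, Cfp, Cfd, Itgam and C3ar1. Itgam and C3ar1 are complement receptors of leukocytes. Of 23 other coagulation and fibrinolysis genes 16 were lower and 3 higher (median -2.77). Plasma kallikrein (Klkb1, -6.41) and heparin cofactor II (Serpind1, -6.03) fell most, tissue factor (F3, 0.05) and thrombomodulin (Thbd, -0.15) did not pass, and the urokinase receptor Plaur (3.82), F13a1 (3.47), the catalytic subunit of factor XIII, and urokinase Plau (1.12) rose. All 21 other plasma proteins were lower (median -5.61), from Apoc4 (-6.53) and Apom (-6.28) to haptoglobin (Hp, -3.57) and Apoe (-1.26). Of 12 other liver transcription factors 10 were lower and 1, Cebpb (1.23), was higher, with Foxa2 (-4.95) and the bile acid receptor Nr1h4 (-4.93) falling most. Foxa1 differed by -1.20, and Nr1i3, at 0.64, did not pass. All 16 enzymes and receptors were lower (median -5.38), from Hpd (-7.71) and Otc (-7.66) to Tat (-1.88) and G6pc (-0.79).

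ADSC was then set against PBS in whole liver, which asks whether the treatment changed the liver's secretory gene expression. None of the 36 genes passed. By limma with Benjamini-Hochberg adjustment 0 of 36 and 0 of all 17321 genes passed in either direction (0%), and an unadjusted p under 0.05 was reached by 2 of 36 against 4.64% of all genes. The median difference of the 36 genes was 0.06, against 0.04 over all genes. Albumin differed by 0.05 ± 0.18, Hnf4a by 0.00 ± 0.23 and C3 by 0.03 ± 0.17.

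The small differences in liver had different signs by role, and none passed. The 5 apolipoproteins were all higher with ADSC, by 0.19 to 0.33, and the 3 fibrinogen chains all lower, by -0.34 (Fga, ± 0.18) to -0.07 (Fgg), and these signs held under the 3 other scalings tried. The apolipoprotein sign did not hold in other respects. Without liver PBS 12 the 5 apolipoproteins ran from -0.05 to 0.06, and on slide 2 and on scan day 2 all 5 were lower with ADSC (medians -0.59 and -0.32). The fibrinogen chains remained lower on slide 2 and without PBS 12, while Fga was at 0.01 within scan day 2 and 1 chain was at 0.00 without ADSC 7. Of the 7 complement genes 5 were lower. C8a was lower in all 4 ADSC livers than in all 4 PBS livers (-0.46 ± 0.13, unadjusted p = 0.00799, limma adjusted p = 0.924), and so was C4b (-0.25 ± 0.10, unadjusted p = 0.0322, adjusted p = 0.998). Non-overlapping groups with lower ADSC were found for 1.21% of all genes, and with higher ADSC for 1.66% of all genes and for 0 of the 36. On slide 2, the only slide with both treatments in liver, C8a differed by -0.75 and C4b by -0.38 between single arrays, where the member median was -0.54 and all but 1 of the 36 were lower.

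Liver PBS 12 weighed on these medians. It was the lowest of the 8 livers for 30 of the 36 genes and the highest for Fga and C8a, and the member median on this array was 72.5% of the liver mean, against 82.8% to 119.5% on the other 7. Without it the member median of ADSC against PBS was -0.10, with 8 of 36 genes higher in ADSC instead of 22. The same array had the highest mean of the neutrophil markers (4.66 against -1.59 to 3.14 in the other livers) and of the 4 cholangiocyte markers (1.98 against 0.02 to 1.36). Of 7 neutrophil markers tested all were lower in ADSC livers and 0 passed, with a median difference of -4.35. Their part in the member values was not tested.

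**Figure D3:**
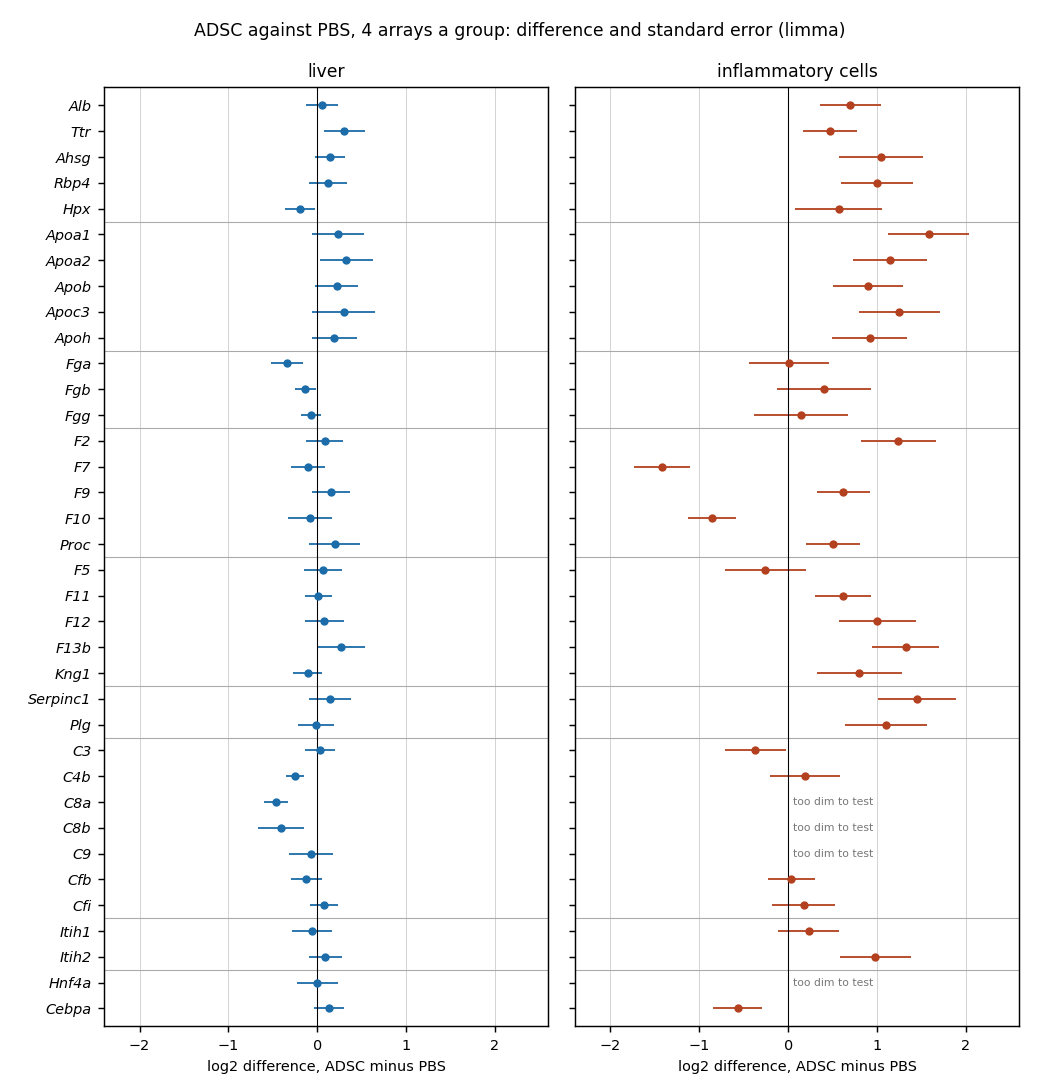
Log2 difference between ADSC and PBS for the 36 genes in liver (left) and inflammatory cells (right), 4 arrays a group; points are limma estimates and bars 1 standard error. Liver differences lie between -0.46 and 0.33, while in inflammatory cells they run from -1.42 (F7) to 1.58 (Apoa1), and the probes of 4 genes were too dim to test there.

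In inflammatory cells, where the same comparison asks whether the treatment changed what the fraction carried, 0 of the 32 members that could be tested passed. The probes used for C8a, C8b, C9 and Hnf4a were too dim. The Hnf4a probe that was above background on all 16 arrays differed by -0.14 between the cell groups. Over all 20167 genes limma with Benjamini-Hochberg adjustment called 0.134% higher and 1.05% lower with ADSC. At an unadjusted p under 0.05 stood 14 of the 32 members against 18.5% of all genes, 12 of them higher with ADSC and 2, F7 and F10, lower. Most members moved together on these arrays (median correlation 0.891), so the 14 are not independent results. F13b entered the test through its ADSC arrays alone, so its place among the 12 supports nothing. The members' median difference was 0.62, with 27 of 32 higher in ADSC, against a median of 0.03 over all genes.

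The upward side was led by apolipoproteins and clotting proteins. Apoa1 differed by 1.58 ± 0.46, or 2.99-fold (adjusted p = 0.138), and Serpinc1 by 1.45 ± 0.44 (adjusted p = 0.150), from 2.53, 2.87, 1.92 and 1.37 with PBS to 2.76, 4.77, 3.51 and 3.44 with ADSC. A second Serpinc1 probe, above background on all 16 arrays, differed by only 0.82. F13b, above background in 0 of 4 PBS and 4 of 4 ADSC arrays, was at least 1.89-fold higher with ADSC, and since it entered the test only through the ADSC arrays no test of it is given. F2 differed by 1.24 ± 0.42 (adjusted p = 0.186), Alb by 0.70 ± 0.34 (adjusted p = 0.302) and Fgb by 0.40 ± 0.53 (adjusted p = 0.716). Apoa1 was higher on all 4 ADSC than on all 4 PBS arrays, as were 3.68% of all genes. By role, the 5 apolipoproteins were all higher (median 1.15) and so were the 5 carriers (median 0.70), except that 1 carrier turned under normexp with quantile normalization. The 3 fibrinogen chains differed little (median 0.14), and 1 of them turned under both normexp settings.

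Array ADSC 8 carried much of this difference. It was the highest of the 8 cell arrays for 27 of the 36 genes, and PBS 14 was the lowest for 25. Without ADSC 8 the member median was 0.34, with 21 of 31 genes higher, and Apoa1 differed by 1.14. ADSC 8 was also the dimmest array, and its share of liver signal was the highest for the members and for the hepatocyte enzymes. Between single arrays on 1 slide the member median was 1.76 on slide 2, which held ADSC 8 and PBS 11, and -0.46 on slide 3, which held ADSC 7 and PBS 12. Within scan day 2 it was 0.63 (2 arrays a group) and within scan day 3 it was 0.28 (2 against 1). Apoa1 differed by 0.31 to 2.53 within these slides and days. Its sign there was fixed in advance, since its ADSC and PBS cell arrays did not overlap. Without the 3 pancreas-rich arrays the member median was 0.74 and the Apoa1 difference 1.91 (adjusted p = 0.171).

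F7 went the other way. It was 2.67-fold lower with ADSC (-1.42 ± 0.31, limma adjusted p = 0.0625) and the only one of the 32 members lower on all 4 ADSC arrays than on all 4 PBS arrays, which held for 6.64% of all genes. It passed the threshold when only probes above background on every array were tested (adjusted p = 0.0398), with slide as a random block (-1.23, adjusted p = 0.0485) and without PBS 11 (-1.71, adjusted p = 0.0197). In the other 15 of 18 alternatives F7 did not pass, with adjusted p up to 0.207. On the slides with both treatments F7 differed by -0.25 and -1.56, and on such scan days by -0.91 and -2.06. Since its groups did not overlap, the signs of these differences were fixed in advance, and only their sizes can be read. Without the 3 pancreas-rich arrays it was -1.49 (adjusted p = 0.137).

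F10 was 1.81-fold lower (-0.86 ± 0.27, adjusted p = 0.157) and passed with normexp background correction and 75th percentile scaling (-0.98, adjusted p = 0.0460). Its difference was 0.09 on slide 2 and -0.92 on slide 3. The other members below 0 were Cebpa (-0.57 ± 0.28, adjusted p = 0.296), C3 (-0.37 ± 0.34, adjusted p = 0.587) and F5 (-0.26 ± 0.45, adjusted p = 0.801). The second probe of Cebpa gave -0.001 and that of C3 gave 0.33. Myeloid markers lay lower with ADSC on the same arrays. All 8 neutrophil markers with a probe passed as lower, with mean levels of 5.47 to 7.31 in PBS and 2.07 to 3.02 in ADSC arrays. These calls were lost without the 3 pancreas-rich arrays (7 tested, 0 passed, adjusted p = 0.137 for each) and with slide as a fixed block (0 of 8 passed, adjusted p from 0.0515 to 0.0821), where the differences remained negative (-4.55 to -1.05 and -5.20 to -1.30). The first setting leaves PBS 12 and PBS 14 against ADSC 7, ADSC 8 and ADSC 9, and the second compares treatments within slides 2 and 3 only. A lost call on so few arrays does not show that the difference was absent. Leaving out PBS 11, PBS 12, PBS 13, ADSC 8, ADSC 9 or ADSC 10 alone ended the call of S100a9 only. Of 7 macrophage and Kupffer cell markers 6 were lower and 0 passed, among them Clec4f (-3.55, adjusted p = 0.0955), Vsig4 (-2.29, adjusted p = 0.0645) and Adgre1 (-1.14, adjusted p = 0.0646). Their part in the lower F7 and F10 was not tested.

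In the related lists few genes passed in this comparison. Among 22 other complement genes 0 passed and 13 were higher (median 0.11). C1qa, C1qb and C1qc, singled out after their values were seen, were each lower on all ADSC arrays (-0.67, -0.73 and -0.87). Non-overlapping groups with lower ADSC were found for 6.64% of all genes, and their number among the 22 is not given. Among 20 coagulation genes F13a1 fell by 1.98 (adjusted p = 0.0111), and among 9 transcription factors Cebpb fell by 1.26 (adjusted p = 0.0373). Both were singled out after their values were seen. Without the 3 pancreas-rich arrays they differed by -2.18 and -1.24 (adjusted p = 0.137 for each), and with slide as a fixed block by -1.93 and -1.68 (adjusted p = 0.0822 and 0.0680), so neither passed. Cebpb also did not pass without PBS 11, PBS 12, ADSC 8, ADSC 9 or ADSC 10 (adjusted p from 0.0753 to 0.135). Of 20 other plasma proteins 0 passed and 16 were higher (median 0.72), and of 14 enzymes and receptors 0 passed and 9 were higher (median 0.58).

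Whether the treatment difference itself differed between the sample types was tested as a contrast over all 16 arrays. By limma 0 of the 36 members passed, where 0% of 22145 genes passed as higher and 0.0316% as lower. At an unadjusted p under 0.05 stood 4 members against 10.1% of all genes: F7 (-1.31 ± 0.39, adjusted p = 0.268), Serpinc1 (1.31 ± 0.55, adjusted p = 0.450), Apoa1 (1.35 ± 0.60, adjusted p = 0.479) and F2 (1.15 ± 0.52, adjusted p = 0.486). The second Serpinc1 probe differed by 0.82 between treatments in the cells and by 0.24 in liver. Over the members the median was 0.62 and 31 of 36 differences were positive, against a median of -0.03 over all genes. The positive ones include C8a (0.77), C8b (0.95), C9 (0.50) and Hnf4a (0.03), whose probes used were too dim to test in the cells. They also include F13b (1.06), not above background on any PBS cell array. These entered through other arrays, so their signs support nothing. A different response of the 36 genes in the fraction and in the liver was therefore not detected at 4 arrays a group.

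The distance between fibrinogen and apolipoprotein levels varied between arrays, which was singled out after the values were seen and is given as a description. Their mean levels correlated at r = 0.71 over the 8 cell arrays and at -0.12 over the 8 livers. The mean level of the 3 fibrinogen chains minus that of the 5 apolipoproteins was 0.59, 1.71, 0.32 and 0.79 in liver PBS 11 to 14 and 0.73, 0.40, 0.36 and 0.18 in liver ADSC 7 to 10. In the cells it was 1.24, 2.57, 1.47 and 1.72 with PBS and 1.07, 0.70, 0.77 and 0.56 with ADSC. The 2 treatments overlapped in liver and did not in the cells, and the array numbered 12 was the highest in both sample types. The size of such a difference depends on the probes, so only its change between arrays can be read.

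**Figure D4:**
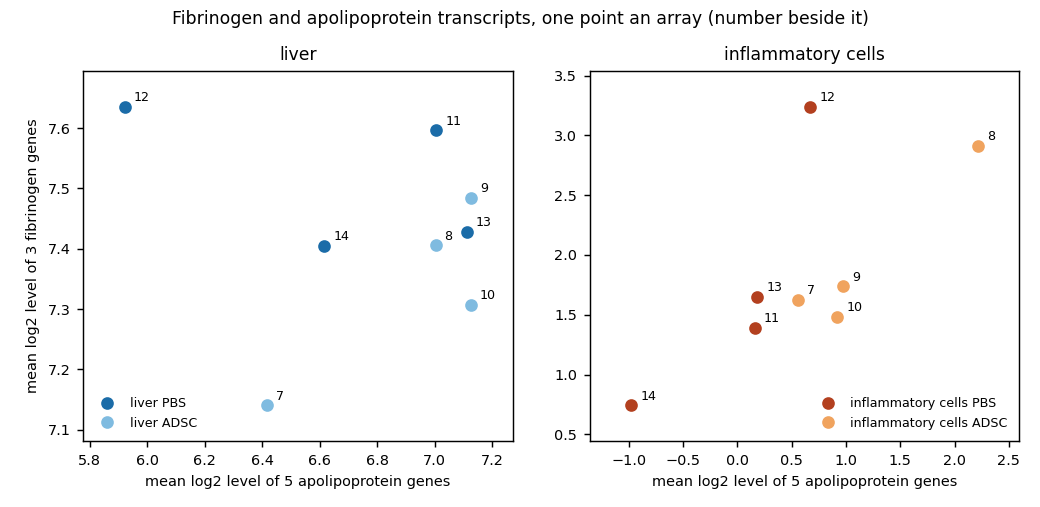
Mean log2 level of 3 fibrinogen genes (vertical) against the mean of 5 apolipoprotein genes (horizontal) in liver (left) and inflammatory cells (right); 1 point is 1 array, with its number. PBS 12 has the highest fibrinogen mean in both panels (7.64 in liver and 3.24 in cells), with the lowest apolipoprotein mean of the livers (5.92).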

How the data were processed

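Total RNA of 16 samples was labelled with Cy3 and hybridised to one-colour Agilent arrays, per the labels' protocols. The deposited files are scanner output, and the values used here are the processed intensity of Feature Extraction 10.5.1.1, background-subtracted on each array per the file headers and not normalized between arrays. The median spot and local background intensities, also deposited, served an alternative. Control spots were dropped, as were 71 to 124 outlier spots on each array; saturation was marked for 0. Signals were put on the log2 scale, set relative to the 75th percentile of that array's non-control probes, and averaged over the spots of a probe. The 41174 probes were named through the GRCm38.p6 RefSeq gene table by accession (23374 probes, 16535 symbols), others keeping the file's name. The brightest probe stood for a gene.

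A gene entered a fit when 4 or more of its arrays had the probe above background. Testing used limma 3.58.1 in R 4.3.3 (lmFit, then eBayes), with Benjamini-Hochberg adjustment over all genes tested and a threshold of 0.05. ADSC against PBS was fitted in each sample type (8 arrays), and cells against liver and the difference of effects in 1 fit of 16 arrays. The number of arrays limits the precision. On data simulated for the treatment comparison in cells (20159 genes, 200 of them changed), 85% of changes of 2 and 100% of changes of 4 on the log2 scale passed, with 8 false calls. For the difference of effects these were 61% and 99%, with 10 false calls. Noise was drawn separately for each gene. Members differed by at most 1.58 in the cells, with a median spread within groups of 0.70 against 0.39 over all genes. These shares therefore do not give the power for the members. Alternatives changed the background correction, scaling, dim-probe filter, probe rule, slide, scan day, replicate block and single arrays. Labels do not tie numbers to animals. Deviations of same-numbered liver and cell arrays correlated from -0.136 to 0.165 over 12824 genes, and 3 of 8 correlated best with their own number, so the numbers were not taken as pairs.

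All members are accounted for. Values on every array were given for at most 14: in each comparison the 4 largest among those passing, or the 3 smallest p where none passed, the 4 smallest differences between sample types, and Alb, Fgb, C3 and Hnf4a. Serpinc1 came last by this rule and was given in the cells only. Of related lists the 2 largest and 2 smallest differences between cells and liver were named. Members and lists were chosen with earlier results of these data known. Promoter windows are RefSeq's. Some related items are not reported here.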

Additional observations from a re-analysis of the deposited data

Results flagged for a closer look

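Of 144 groups of 4 arrays examined, 1 for each member and group, 13 held an array whose gap to its nearest neighbour took up more of the group's range than Dixon's 95% critical value of 0.829 allows. Chance flags about 1 in 20 groups, and members of 1 array are not independent.

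In 6 of the 13 the array was inflammatory cells ADSC 8, always as the highest of its group. Fgg lay at 4.24 there against 2.63 to 2.75 on the other ADSC cell arrays, F9 at -0.52 against -1.75 to -1.55, and F11 at -1.54 against -2.74 to -2.54. C8a lay at -2.32 against -4.86 to -4.43, Cfb at 3.66 against 2.74 to 2.86 and Cfi at 2.38 against 1.07 to 1.20. This was also the array with the lowest 75th percentile of signal, 123, and its part in the values was not tested.

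Liver ADSC 7 was the lowest of its group for 4 genes. Rbp4 lay at 8.62 against 9.01 to 9.08, Apob at 5.49 against 6.13 to 6.17, Serpinc1 at 7.90 against 8.35 to 8.41 and C3 at 9.41 against 9.68 to 9.73. Liver ADSC 9 was the highest for Ttr (3.40 against 2.98 to 3.03) and Itih2 (5.73 against 5.37 to 5.43). Inflammatory cells PBS 13, rich in pancreas acinar markers, was the lowest of its group for Cebpa, at 0.19 against 0.95 to 1.08. None of the 36 genes passed the test of a different treatment effect in the sample types.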

How the results depend on the processing

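All 36 genes were lower in inflammatory cells than in liver under every alternative run, and all that were tested passed (28 to 36, with 28 tested when a probe had to be above background on every array). The median of -5.38 moved to -4.70 under normexp with the 75th percentile and to -4.37 under normexp with quantile normalization, and lay between -5.54 and -5.27 when single arrays were left out. The median over all genes was 0.35, and 0.70 with the percentile over detected probes or 0.13 with quantile normalization, and 58.0% of passing genes were higher, against 66.1% with that percentile, 69.2% with no filter and 46.4% with the strictest filter. In liver 0 members passed under any alternative. The member median there was -0.54 with slide as a fixed block, which leaves only the 2 arrays of slide 2 to compare, and from -0.10 to 0.14 when single arrays were left out. In inflammatory cells the count of members passing was 1 under normexp with the 75th percentile (F10), 1 with probes above background on every array (F7), 1 with slide as a random block (F7) and 0 to 1 when single arrays were left out (F7 without PBS 11). Slides 2 and 3 alone held both treatments of this fraction, so the fixed block compares treatments within them only. The member median in inflammatory cells ran from 0.34 to 0.90. Over all genes 239 passed there, against 0 with slide as a fixed block, 110 with no filter, 155 with scan day as a term, 817 with slide as a random block (29.0% of them higher, against 11.3%), 0 without the 3 pancreas-rich arrays, an alternative chosen after seeing the data, and 67 to 506 when single arrays were left out. For the difference of effects 0 members passed throughout, and 7 genes in all, against 0 to 67 under the other settings. With the replicate number as a replicate block 36 of 36 members were lower in the cells and 0 members and 0 genes passed for the difference of effects (F7 adjusted p = 0.356), so the block changed no member's call.

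Limits: probes near background, such as C8a, C8b, C9 and Hnf4a in the cell fraction, give only bounds or wide spreads. Slides held few arrays of both treatments, all livers lay on other positions of the slide than the cells, and how the fraction was isolated is not settled by the labels. Probes of some genes, among them Hnf4a, C3, Cebpa and Serpinc1, disagreed in size or sign.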
